A study of Mus musculus with 6 samples.

Results

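The genes described here encode the initiation and elongation factors of cytosolic protein synthesis. They were chosen by symbol alone, as rows whose name begins with Eif1 to Eif6 or with Eef1 or Eef2, leaving out the eIF2 kinases (Eif2ak) and rows marked as pseudogenes. This gave 64 of the 30587 rows of the count table. RNA was sequenced from dendritic cells grown from bone marrow of C57BL/6 mice. The 3 KO libraries came from mice with floxed Hif2a alleles and the CD11c-Cre transgene (CD11c-Cre;Hif2a fl/fl), which recombines the alleles in cells that express CD11c, a surface protein of dendritic cells and some macrophages. The 3 WT libraries came from mice with the floxed alleles and no Cre (Hif2a fl/fl). Both genotypes had received dimethyloxalylglycine (DMOG), which blocks the prolyl hydroxylases and so stabilizes HIF-1α and HIF-2α, for 24 h, and then α-galactosylceramide (α-GalCer), a glycolipid presented by CD1d, for 4 h. No untreated cells were compared, so each difference below is between genotypes under both agents. The labels leave it unsaid whether libraries 1 to 3 of a genotype are different mice or different cultures, so every p-value reflects only how far these libraries scatter, part of which may be technical. The series was made to ask how HIF-2α acts on glycolipid priming.

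Translation starts when eIF2, bound to GTP and the initiator tRNA, joins the small ribosomal subunit together with eIF1, eIF1A, eIF3 and eIF5. The cap of the messenger RNA is bound by eIF4E, which with the scaffold eIF4G and the helicase eIF4A forms eIF4F, and the 4E-binding proteins block this assembly until the kinase mTOR phosphorylates them. After each round eIF2B reloads eIF2 with GTP, a step that stress kinases shut down. During elongation eEF1A brings aminoacyl-tRNAs to the ribosome, the eEF1B subunits recharge eEF1A, and eEF2 moves the ribosome along. Maturing dendritic cells are known to change their rate of protein synthesis, and low oxygen is known to lower cap-dependent initiation in many cell types.

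Total counts ran from 16826800 to 17884160 reads in the KO libraries and from 14668641 to 17041448 in the WT libraries. Values are given as CPM, read counts scaled to a common depth, with TMM factors between libraries, and ± is the SD over 3 libraries for CPM and the SE for a log2 fold change of KO over WT. A gene is said to have risen or fallen where the quasi-likelihood test of edgeR, adjusted over all 13249 genes with enough reads, gave p under 0.05. By that rule 25.8% of the tested genes changed, with 13.8% higher and 12% lower in KO, and the libraries of the genotypes did not overlap in 40.4% of them. With 3 libraries against 3 an exact permutation test cannot go below 0.1, and the edgeR values therefore lean on the model across genes. The targeted gene Epas1, which encodes HIF-2α, had 9.59, 12.7 and 11.5 CPM in KO 1, 2 and 3, against 20.1, 22.8 and 23.8 CPM in WT 1, 2 and 3. Every KO library lay below every WT library (log2 fold change -0.98 ± 0.12, edgeR adjusted p = 3.45e-05), and the deleted exons are not named in the labels. These are bulk libraries, in which fewer cells of a type and less RNA per cell cannot be told apart. More rows held at least 1 read in KO 1 (22275) and WT 2 (25408) than in the other libraries, which had 18763 to 19513.

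Changes among the translation factor genes were small and went in both directions. Of the 64 members 61 had enough reads for the test, and 9 of these rose and 12 fell in KO. This is 34.4% of the tested members, beside 25.8% of all tested genes. The members were also more deeply read, with a median of 88.5 CPM against 21.1 CPM over all tested genes, and the part of depth in that share was not tested. Log2 fold changes ran from -0.53 for Eif4ebp1 to 0.71 for Eef1akmt4, and no called member reached 1.5-fold. The median was -0.04, against -0.01 over all tested genes. Genotypes did not overlap in 29 of the 61, beside 40.4% of all tested genes, with KO above WT in 16 and below WT in 13. The members left without a test for lack of reads were Eef1akmt3, an eEF1A methyltransferase gene, Eif4ebp3, the third 4E-binding protein gene, and Eif2c5, which RefSeq lists as a long non-coding RNA with the synonym Ago5. They had 0 to 8 reads in a library.

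The calls depended in part on single libraries. Over 15 other ways of processing, 9 of the 12 members that fell and 3 of the 9 that rose were called every time. Leaving out KO 3 left 3 members higher and 10 lower, leaving out KO 2 left 5 and 11, and leaving out WT 1 left 5 and 12. With scaling to library size only, 14 members rose and 11 fell. Over all genes, 62.3% of the calls were higher with that scaling, against 53.5% with TMM. The fold changes of all tested members are shown by factor, and the libraries behind the calls one by one.

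**Figure D1:**
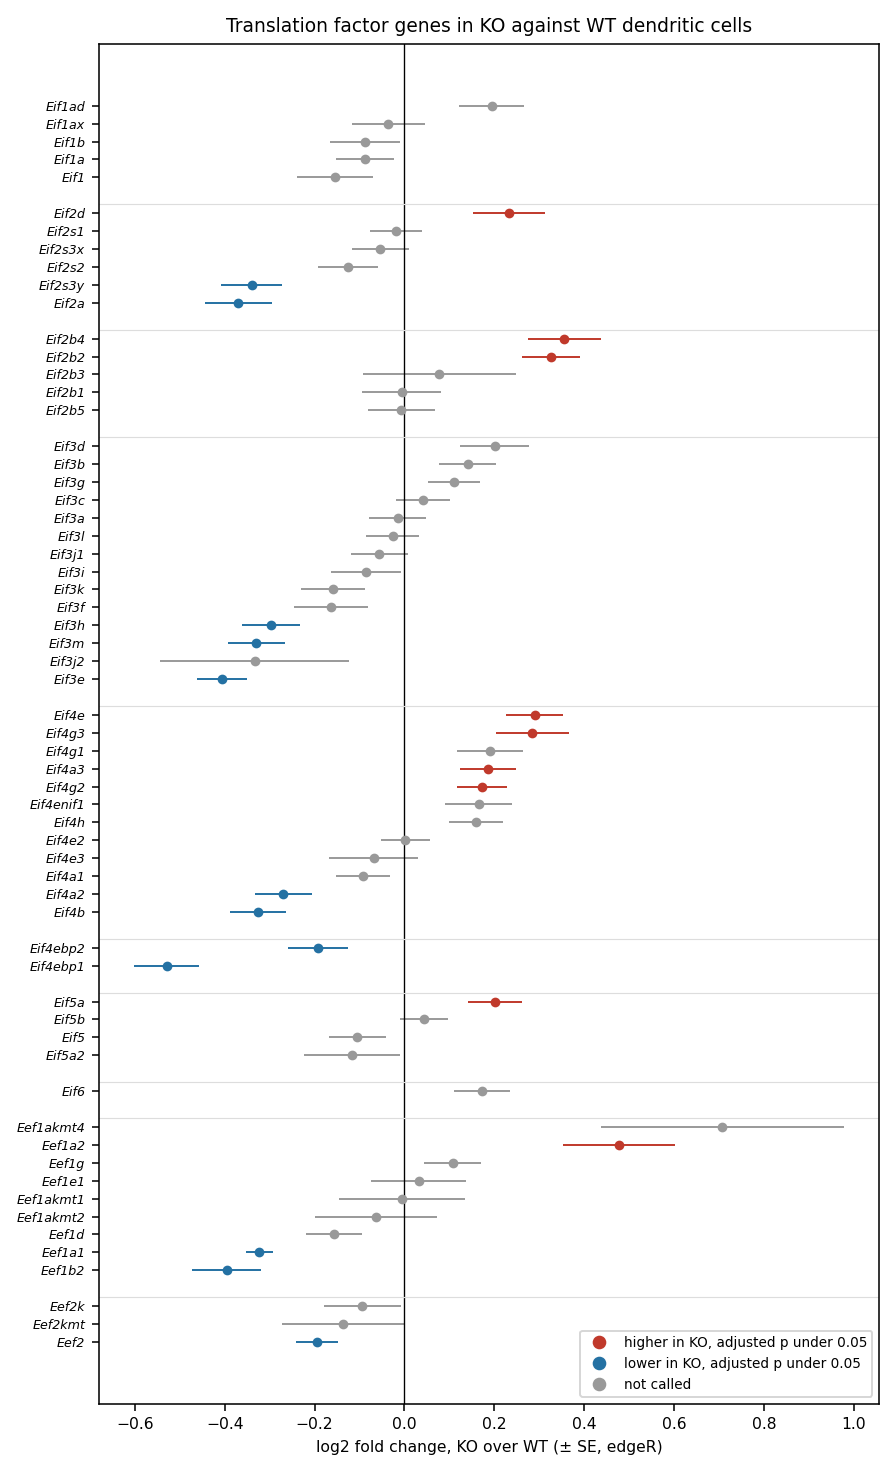
Log2 fold change of KO over WT (x axis, ± SE from edgeR, n = 3 libraries per genotype) for the 61 tested members, grouped by factor from Eif1 at the top to Eef2 at the bottom. Red points rose, blue points fell and grey points were not called; Eif4ebp1 lies lowest at -0.53, and the called member that lies highest is Eef1a2 at 0.48.

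**Figure D2:**
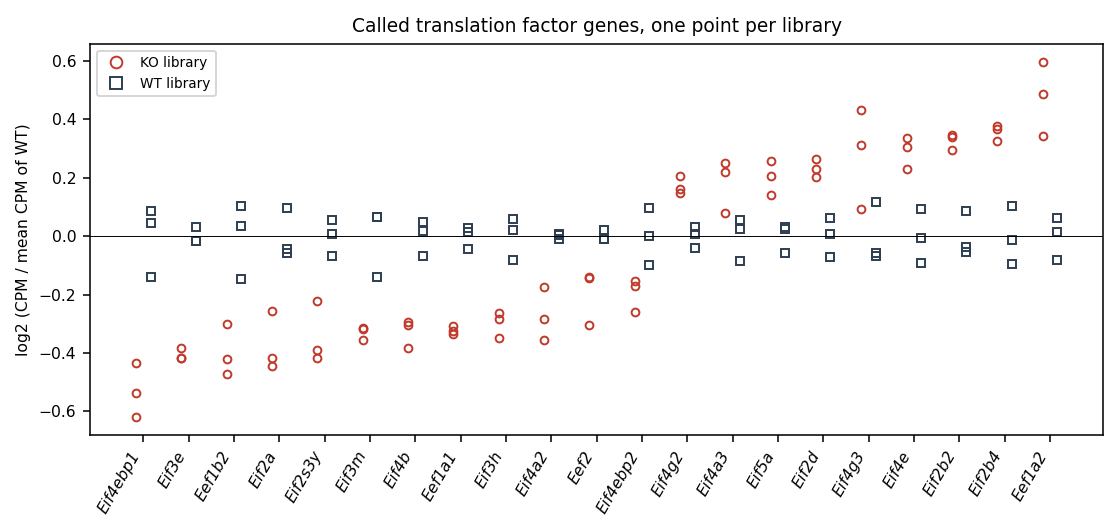
Level in each library of the 21 called members, as log2 of CPM over the mean CPM of WT (y axis), with KO libraries as red circles left of WT libraries as dark squares. Genotypes are apart for every gene shown except Eif4g3, where KO 1 lies among the WT libraries.

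In the cap-binding group Eif4e rose, and of the genes of its repressors Eif4ebp1 and, less stably, Eif4ebp2 fell, while Eif4ebp3 had too few reads to test. Eif4ebp1 (chromosome 8, 27260329 to 27276674, plus strand, mm10) encodes 4E-BP1, which holds eIF4E away from eIF4G. It had 117, 110.5 and 126 CPM in KO 1, 2 and 3, against 175, 180.0 and 154 CPM in WT 1, 2 and 3. All KO libraries were low and the genotypes stayed well apart, at 1.44-fold lower than WT (log2 fold change -0.53 ± 0.07, edgeR adjusted p = 0.000131). Eif4ebp2, for the related 4E-BP2, had 181, 193 and 195 CPM in KO 1, 2 and 3, against 202, 217 and 232 CPM in WT 1, 2 and 3. KO was lower in every library, but the log2 fold change of -0.19 ± 0.07 only just passed (edgeR adjusted p = 0.0491). That call was lost without KO 1 (-0.16), KO 2 (-0.20), KO 3 (-0.21), WT 2 (-0.19) or WT 3 (-0.14), without both WT 2 and KO 1 (-0.16), and with DESeq2 size factors (-0.19), library size only (-0.16) or no count filter (-0.18). Eif4e (chromosome 3, 138526179 to 138559696, plus strand), for eIF4E itself, had 74.7, 80.2 and 78.6 CPM in KO 1, 2 and 3, against 67.8, 63.3 and 59.7 CPM in WT 1, 2 and 3. It was 1.22-fold higher without overlap (log2 fold change 0.29 ± 0.06, edgeR adjusted p = 0.00452).

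Within each library the log2 ratio of Eif4e to Eif4ebp1 reads, looked at after the values were seen, was -0.65, -0.46 and -0.67 in KO 1, 2 and 3, against -1.37, -1.51 and -1.37 in WT 1, 2 and 3. The ratio does not depend on scaling, and it was 0.82 higher on the log2 scale in KO, or 1.77-fold. Both genes had already been called, in opposite directions, so this ratio restates those calls and adds no support of its own. The other cap-binding genes did not pass. Eif4e2, for the homologue 4EHP that binds caps without eIF4G, had 109, 112 and 107 CPM in KO 1, 2 and 3, against 114, 108 and 105 CPM in WT 1, 2 and 3, and the genotypes lay on top of each other (log2 fold change 0.002 ± 0.055). Eif4e3 had 16.2, 18.7 and 16.8 CPM in KO 1, 2 and 3, against 16.5, 19.6 and 18 CPM in WT 1, 2 and 3, again with overlap (log2 fold change -0.07 ± 0.10). Eif4enif1, for the eIF4E transporter 4E-T that carries eIF4E to processing bodies, averaged 40.8 ± 2.12 CPM in KO and 36.4 ± 1.92 CPM in WT and did not pass (log2 fold change 0.16 ± 0.07).

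Promoter sequences of RefSeq (GRCm38.p6, 250 bases before to 50 after a start) were found for 49 of the 64 members and searched on both strands. The core of the hypoxia response element, ACGTG or GCGTG, occurred in 35 of the 49 (71.4%), against 46.7% of 27025 genes in the table. It was found in 5 of the 8 members with a promoter that rose, 5 of the 9 that fell and 25 of the 31 that were not called. The E-box CACGTG, which contains ACGTG, occurred in 13 of the 49 (26.5%), against 8.1% of all genes. The core of the interferon-stimulated response element, GAAA repeated after any 2 bases, occurred in 3 of the 49 (6.1%), against 4% of all genes, and in none of the 8 that rose and 9 that fell with a promoter entry. The 27025 genes were not matched to the members for expression or base content. A gene counted if any of its starts held a match. The higher shares can therefore not be taken as particular to translation factors. A match is a run of letters and not a binding site. The 250 bases before the start are shown for the cap-binding gene that rose and a repressor gene that fell, 5′ to 3′ with matches in capitals (ACGTG and GCGTG read CACGT and CACGC on the other strand):
Eif4e, chr3:138527018-138527267, plus strand: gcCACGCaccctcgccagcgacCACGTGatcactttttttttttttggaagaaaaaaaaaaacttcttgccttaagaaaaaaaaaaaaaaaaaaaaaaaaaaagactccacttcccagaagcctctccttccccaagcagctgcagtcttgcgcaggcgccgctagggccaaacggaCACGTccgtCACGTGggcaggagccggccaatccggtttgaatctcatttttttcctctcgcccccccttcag
Eif4ebp2, chr10:61452670-61452919, minus strand: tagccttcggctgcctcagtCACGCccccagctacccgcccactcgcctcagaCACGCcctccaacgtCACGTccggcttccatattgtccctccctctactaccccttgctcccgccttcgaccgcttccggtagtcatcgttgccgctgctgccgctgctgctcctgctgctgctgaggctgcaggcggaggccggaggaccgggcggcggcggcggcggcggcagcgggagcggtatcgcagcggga
Eif4e, here before the downstream of its 2 RefSeq starts, has 4 capital runs, among them 2 E-boxes. Eif4ebp2 has 3 and no E-box. The call of Eif4ebp2 was lost in 9 of the 15 alternatives, and Eif4ebp1, called in all of them, is not shown. These sequences are therefore no contrast between genes that rose and genes that fell.

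Of the scaffold genes, Eif4g2 and Eif4g3 rose. Eif4g2 (DAP5, a scaffold without an eIF4E site) had 661, 687 and 667 CPM in KO 1, 2 and 3, against 609.5, 579 and 599 CPM in WT 1, 2 and 3. The genotypes did not overlap (log2 fold change 0.17 ± 0.06, edgeR adjusted p = 0.0357). Eif4g3 had 96, 121 and 112 CPM in KO 1, 2 and 3, against 86, 86.6 and 97.7 CPM in WT 1, 2 and 3, with KO 1 below WT 3 (log2 fold change 0.28 ± 0.08, edgeR adjusted p = 0.0199). Eif4g1, for the main eIF4G, averaged 370.2 ± 27.1 CPM in KO and 324 ± 18.3 CPM in WT and did not pass (log2 fold change 0.19 ± 0.07, edgeR adjusted p = 0.071). Eif4g1 passed in 7 of the 15 alternatives. With no library left out it passed with library size only (0.22), no count filter (0.20), the DESeq2 Wald test (0.19) and limma-voom (0.19). It also passed without KO 1 (0.25), without WT 3 (0.24) and without both WT 2 and KO 1 (0.21). The call of Eif4g2 was lost without KO 2 (0.16), KO 3 (0.18), WT 1 (0.20), WT 2 (0.15) or WT 3 (0.18), without both WT 2 and KO 1 (0.17), with no count filter (0.18) and with the replicate number as a block (0.17). That of Eif4g3 was lost without KO 2 (0.21), KO 3 (0.27), WT 1 (0.26) or WT 2 (0.26).

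Among the helicases and their cofactors, Eif4b and Eif4a2 fell. Eif4b, for the cofactor that speeds up eIF4A, had 386, 411 and 407 CPM in KO 1, 2 and 3, against 509, 479.9 and 520.1 CPM in WT 1, 2 and 3. All KO libraries were lower (log2 fold change -0.33 ± 0.06, edgeR adjusted p = 0.00176). Eif4a2, for one of the paired helicases of eIF4F, averaged 170.2 ± 10.8 CPM in KO and 205 ± 1.12 CPM in WT (log2 fold change -0.27 ± 0.06, edgeR adjusted p = 0.00691), and its call was lost without KO 3 (-0.23). Small nucleolar RNA genes and Rfc4 share exon sequence with Eif4a2, so its reads may not all be its own. Eif4a1, for the other helicase, averaged 597 ± 14 CPM in KO and 637 ± 34.5 CPM in WT and did not pass (log2 fold change -0.09 ± 0.06). The processed copy Eif4a-ps4 has its own row with 2319 to 2914 reads per library, and with those reads added the log2 fold change of Eif4a1 was -0.08. Eif4a3, for a helicase of the exon junction complex and not of eIF4F, had 103, 91.4 and 101 CPM in KO 1, 2 and 3, against 88, 90 and 81.7 CPM in WT 1, 2 and 3. KO 2 lay just above the highest WT library (log2 fold change 0.19 ± 0.06, edgeR adjusted p = 0.044). That call was lost without KO 1 (0.15), KO 3 (0.17), WT 1 (0.20), WT 2 (0.22) or WT 3 (0.15), without both WT 2 and KO 1 (0.18), and with the replicate block (0.18), the DESeq2 Wald test (0.19) or limma-voom (0.18). Eif4h, for a small cofactor related to eIF4B, was apart but not called (0.16 ± 0.06, edgeR adjusted p = 0.0687). It passed with the DESeq2 Wald test (0.16), limma-voom (0.16) and library size only (0.19).

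Of the core eIF2 genes, the Y-linked copy of the γ subunit fell and the others did not pass. Eif2s2, for the β subunit, had 85.4, 95.8 and 83.8 CPM in KO 1, 2 and 3, against 101, 98.2 and 90 CPM in WT 1, 2 and 3. The genotypes overlapped (log2 fold change -0.13 ± 0.07), as they did for Eif2s1, the α subunit that stress kinases phosphorylate (-0.02 ± 0.06), and for the X-linked γ subunit Eif2s3x (-0.05 ± 0.06). The Y-linked Eif2s3y had 54.7, 48.7 and 47.8 CPM in KO 1, 2 and 3, against 66.3, 64.2 and 61 CPM in WT 1, 2 and 3. It was 1.27-fold lower without overlap (log2 fold change -0.34 ± 0.07, edgeR adjusted p = 0.00262). All 6 libraries carried Y-linked reads, and Xist had 0 to 5 reads in a library. Other Y-linked genes had log2 fold changes of -0.21 ± 0.07 for Ddx3y, which also passed (edgeR adjusted p = 0.0396), -0.15 ± 0.09 for Kdm5d and -0.07 ± 0.10 for Uty, neither of which passed. Per library Ddx3y had 53, 55.4 and 50.2 CPM in KO 1, 2 and 3, against 63, 56 and 65 CPM in WT 1, 2 and 3. Kdm5d had 16.4, 18.4 and 17.6 CPM in KO 1, 2 and 3, against 19.4, 19.3 and 19.2 CPM in WT 1, 2 and 3, and Uty had 17.2, 20 and 16.6 CPM in KO 1, 2 and 3, against 18.6, 19.1 and 18.6 CPM in WT 1, 2 and 3. The libraries of the genotypes were apart for Ddx3y and Kdm5d and overlapped for Uty. The log2 ratio of Eif2s3x to Eif2s3y reads averaged 0.41 ± 0.19 in KO and 0.13 ± 0.09 in WT, with KO 1 among the WT libraries (exact permutation test, two-sided, p = 0.2). The copies encode nearly identical proteins, so reads could be split between them.

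Eif2a and Eif2d encode alternative factors that can bring initiator tRNA to the ribosome without eIF2, and they moved in opposite directions. Eif2a (chromosome 3, 58525821 to 58557501, plus strand) had 37.2, 37.9 and 42.3 CPM in KO 1, 2 and 3, against 48.6, 49.1 and 54.1 CPM in WT 1, 2 and 3. KO was lower throughout (log2 fold change -0.37 ± 0.07, edgeR adjusted p = 0.00269). Eif2d had 28.9, 28.3 and 29.6 CPM in KO 1, 2 and 3, against 23.4, 25.7 and 24.8 CPM in WT 1, 2 and 3. KO was higher throughout, but the margin was thin (log2 fold change 0.23 ± 0.08, edgeR adjusted p = 0.0466). The Eif2d call was lost in 10 of the 15 alternatives, without KO 1 (0.24), KO 2 (0.25), KO 3 (0.22), WT 1 (0.20) or WT 3 (0.24), without both WT 2 and KO 1 (0.27), and with no count filter (0.25), the DESeq2 Wald test (0.24), the replicate block (0.23) or offsets for GC content and length (0.19). Exons of Eif2a overlap Serp1 by 72 bases and those of Eif2d overlap Rassf5 by 78 bases, both on the opposite strand, and strand-specific counting is not stated.

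In eIF2B, the exchange factor of eIF2, the β and δ subunit genes rose and the other subunit genes did not pass. Eif2b2 (β; chromosome 12, 85219481 to 85226628, plus strand) had 53.9, 55.6 and 55.8 CPM in KO 1, 2 and 3, against 46.7, 42.8 and 42.3 CPM in WT 1, 2 and 3. It was 1.25-fold higher (log2 fold change 0.33 ± 0.06, edgeR adjusted p = 0.00228). Eif2b4 (δ) had 32.5, 32.7 and 31.5 CPM in KO 1, 2 and 3, against 27, 24.9 and 23.5 CPM in WT 1, 2 and 3. The KO libraries were tightly grouped above WT (1.28-fold higher, log2 fold change 0.36 ± 0.08, edgeR adjusted p = 0.00584). Eif2b5, for the catalytic ε subunit, had 48.8, 48.4 and 48.7 CPM in KO 1, 2 and 3, against 43.9, 53.5 and 49.4 CPM in WT 1, 2 and 3, with KO inside the range of WT (log2 fold change -0.01 ± 0.07). Eif2b1 (α) and Eif2b3 (γ) overlapped as well, with log2 fold changes of -0.01 ± 0.09 and 0.08 ± 0.17. The α, β and δ subunits form the regulatory part that senses phosphorylated eIF2, so the members that rose belong to that part, as does Eif2b1, which did not pass. Eif2b4 overlaps Snx17 by 204 bases on the opposite strand. The summed level of the eIF2B genes was 171 ± 2.66 CPM in KO and 153 ± 5.98 CPM in WT. That difference lay in the called genes, Eif2b2 (on average 55.1 CPM in KO and 43.9 CPM in WT) and Eif2b4 (32.2 CPM in KO and 25.2 CPM in WT).

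eIF3 is the large scaffold that holds the small subunit ready for the messenger RNA, and 3 of its 14 genes fell while none rose. This is 21.4% of them, beside 25.8% of all tested genes. Genotypes were apart in 6 of the 14, beside 40.4% of all tested genes. Its subunits fall into an octamer (a, c, e, f, h, k, l and m), a b-g-i module, and the more loosely held d and j. Eif3e (chromosome 15, 43250058 to 43282719, minus strand) had 148, 145 and 145 CPM in KO 1, 2 and 3, against 192, 198 and 191 CPM in WT 1, 2 and 3. The KO libraries were nearly equal and 1.32-fold lower than WT (log2 fold change -0.41 ± 0.06, edgeR adjusted p = 0.000152). Eif3m had 75.3, 73.3 and 75.3 CPM in KO 1, 2 and 3, against 98.2, 98 and 85.1 CPM in WT 1, 2 and 3. Every KO library was lower (log2 fold change -0.33 ± 0.06, edgeR adjusted p = 0.00205). Eif3h averaged 301 ± 9.4 CPM in KO and 370.0 ± 18.6 CPM in WT (SD, n = 3 each), again without overlap (log2 fold change -0.30 ± 0.06, edgeR adjusted p = 0.00438). Exons of Eif3m overlap Ccdc73 by 82 bases on the opposite strand. All of these belong to the octamer, and their calls held in all 15 alternatives.

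The rest of the octamer did not pass. Eif3a, for the largest subunit, had 359, 359 and 358 CPM in KO 1, 2 and 3, against 379.8, 342 and 365 CPM in WT 1, 2 and 3, with KO inside the WT range (log2 fold change -0.01 ± 0.06). Eif3c and Eif3l were likewise near 0, at 0.04 ± 0.06 and -0.03 ± 0.06. Eif3f and Eif3k lay at -0.16 ± 0.08 and -0.16 ± 0.07, with overlap between genotypes, and Eif3k passed without WT 3 (-0.22). Outside the octamer Eif3b (0.14 ± 0.06), Eif3g (0.11 ± 0.06) and Eif3d (0.20 ± 0.08) had every KO library above every WT library and did not pass, with edgeR adjusted p = 0.127, 0.182 and 0.0713. Eif3i (-0.08 ± 0.08) and Eif3j1 (-0.06 ± 0.06) overlapped, and so did Eif3j2 (-0.33 ± 0.21), a near copy of Eif3j1 with 41 to 68 reads a library. Pseudogenes of Eif3e have rows of their own, which the symbol rule leaves out. One of them, Eif3s6-ps2, looked at after its values were seen, had 6, 1 and 3 reads in KO 1, 2 and 3, against 50, 45 and 29 in WT 1, 2 and 3. With the reads of all Eif3e pseudogene rows added, the log2 fold change of Eif3e was -0.42.

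**Figure D3:**
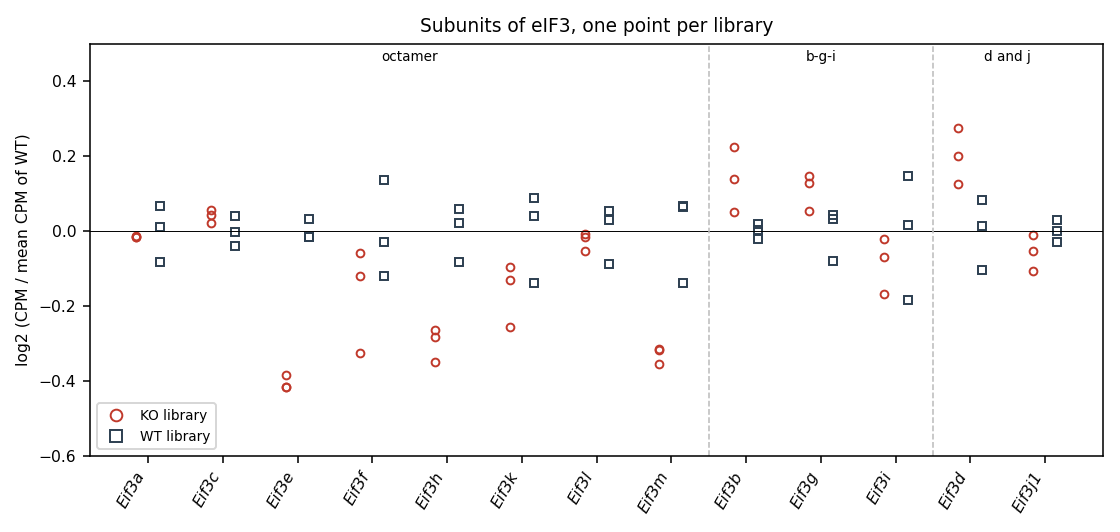
Level of each eIF3 subunit gene except Eif3j2 in each library, as log2 of CPM over the mean CPM of WT (y axis), with KO libraries as red circles left of WT libraries as dark squares, and dashed lines between the octamer, the b-g-i module and the d and j subunits. Eif3e, Eif3h and Eif3m have all KO libraries below WT; Eif3b, Eif3g and Eif3d have all KO libraries above WT without passing the test.

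Of the genes named Eif5 and Eif6, only Eif5a was called. Eif5a, whose product carries the hypusine residue and helps ribosomes past stalling sequences, had 533, 557 and 578 CPM in KO 1, 2 and 3, against 491, 494 and 465 CPM in WT 1, 2 and 3. KO was higher without overlap (log2 fold change 0.20 ± 0.06, edgeR adjusted p = 0.0257). The call was lost without KO 2 (0.20), KO 3 (0.17), WT 1 (0.22) or WT 3 (0.18). Its paralog Eif5a2 had 17.2, 13.9 and 15.3 CPM in KO 1, 2 and 3, against 16.1, 18.3 and 15.9 CPM in WT 1, 2 and 3, with overlap (log2 fold change -0.12 ± 0.11). Eif5, the GTPase activator of eIF2, and Eif5b, which joins the subunits, had log2 fold changes of -0.11 ± 0.06 and 0.04 ± 0.05. Eif6, whose product keeps free large subunits apart from small ones, had 142, 149 and 155 CPM in KO 1, 2 and 3, against 135, 137 and 124 CPM in WT 1, 2 and 3. It was apart but fell short of the threshold (log2 fold change 0.17 ± 0.06, edgeR adjusted p = 0.058), and it passed without KO 1 (0.21).

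Of the 5 genes named Eif1, none was called by edgeR, and none by DESeq2 or limma-voom. At an unadjusted edgeR p under 0.05 the count was 1, which was Eif1ad. Eif1, for the guardian of start codon choice, had 266, 209 and 246 CPM in KO 1, 2 and 3, against 274, 277 and 250.4 CPM in WT 1, 2 and 3. KO 2 was low and the genotypes overlapped (log2 fold change -0.16 ± 0.08), and without KO 1 the gene passed (-0.23). Eif1a, Eif1ax and Eif1b had log2 fold changes of -0.09 ± 0.06, -0.04 ± 0.08 and -0.09 ± 0.08, all with overlap. Eif1ad, whose product shares a domain with eIF1A, was apart at 0.19 ± 0.07 but not called (edgeR adjusted p = 0.0644), and it passed without KO 1 (0.25).

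Eef1a1 and Eef2 had the highest levels per kilobase of the members, and both fell. Per kilobase of exon, Eef1a1 stood at 1969 CPM in KO and 2463 CPM in WT, and Eef2 at 819 CPM in KO and 937 CPM in WT. The next highest level per kilobase was that of Eif5a, at 234 CPM in KO, and in WT that of Eif3h, at 229.6 CPM. Eef1a1 (chromosome 9, 78478449 to 78489151, minus strand), which encodes eEF1A1, had 4961, 4868 and 4899 CPM in KO 1, 2 and 3, against 6264, 6196 and 5962 CPM in WT 1, 2 and 3. The libraries of each genotype lay close together and far from the other (1.25-fold lower, log2 fold change -0.32 ± 0.03, edgeR adjusted p = 5.05e-06). Eef2 (chromosome 10, 81176631 to 81182498, plus strand), for the translocase, had 2519, 2818 and 2826 CPM in KO 1, 2 and 3, against 3089, 3091 and 3158 CPM in WT 1, 2 and 3. KO 1 was lowest and no KO library reached WT (log2 fold change -0.19 ± 0.05, edgeR adjusted p = 0.00795). Without both WT 2 and KO 1 the log2 fold change of Eef2 was -0.15 and did not pass.

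The same 250 bases are shown for the main elongation factor genes, which fell, with the matches again in capitals:
Eef1a1, chr9:78481725-78481974, minus strand: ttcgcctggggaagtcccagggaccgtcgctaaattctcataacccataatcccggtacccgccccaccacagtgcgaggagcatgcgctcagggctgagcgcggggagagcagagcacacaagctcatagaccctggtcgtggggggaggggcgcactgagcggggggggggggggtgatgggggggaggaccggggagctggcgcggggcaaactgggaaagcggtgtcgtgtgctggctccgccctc
Eef2, chr10:81176381-81176630, plus strand: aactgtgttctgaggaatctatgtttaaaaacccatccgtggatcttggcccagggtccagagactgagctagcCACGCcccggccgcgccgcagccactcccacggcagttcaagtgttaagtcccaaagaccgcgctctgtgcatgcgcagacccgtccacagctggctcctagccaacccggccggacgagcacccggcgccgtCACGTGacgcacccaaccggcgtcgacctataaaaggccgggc
Eef2 has 2 capital runs, of which 1 is an E-box. Eef1a1, whose fold change had the smallest SE of the members, has none in this stretch.

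Together Eef1a1 and Eef2 made up 7630.3 ± 132 CPM in KO and 9254 ± 120.3 CPM in WT. The summed level of the other 62 members was 8239 ± 70.2 CPM in KO and 8443 ± 196 CPM in WT, with overlap between genotypes, so the lower sum of all members in KO (15869 ± 153 CPM in KO and 17696 ± 314 CPM in WT) lay mostly in these highly expressed genes. Eef1a2, the paralog of Eef1a1 known from muscle and neurons, was rare and rose. It had 9.43, 10.4 and 11.2 CPM in KO 1, 2 and 3, against 7.51, 7.77 and 7.02 CPM in WT 1, 2 and 3 (log2 fold change 0.48 ± 0.12, edgeR adjusted p = 0.0125), and its call was lost without KO 3 (0.42). Per kilobase Eef1a1 still exceeded Eef1a2 by 395-fold in KO and 685-fold in WT.

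Of the exchange factor genes of eEF1A, Eef1b2 alone was called. Eef1b2 (chromosome 1, 63176825 to 63180486, plus strand), for the catalytic α subunit of eEF1B, had 229.6, 204 and 211 CPM in KO 1, 2 and 3, against 289, 303 and 255 CPM in WT 1, 2 and 3. It was 1.32-fold lower without overlap (log2 fold change -0.40 ± 0.08, edgeR adjusted p = 0.00198). Exons of Eef1b2 share 176 bases with Gm27390 on the same strand and 9 bases with Ndufs1 on the opposite strand. Eef1d, for the δ subunit, had all KO libraries below WT, averaged 89.3 ± 5.62 CPM in KO and 99.5 ± 4.59 CPM in WT and did not pass (log2 fold change -0.16 ± 0.06, edgeR adjusted p = 0.0785), although it passed without KO 1 (-0.19) and with the GC and length offsets (-0.19). Eef1g, for the structural γ subunit, lay on the other side at 336 ± 9.12 CPM in KO and 312 ± 13.1 CPM in WT (log2 fold change 0.11 ± 0.06, edgeR adjusted p = 0.24). The enzymes that act on elongation factors did not pass. Eef2k, for the kinase that inactivates eEF2, was at -0.09 ± 0.09, and the methyltransferase genes Eef2kmt, Eef1akmt1, Eef1akmt2 and Eef1akmt4 were at -0.14 ± 0.14, -0.01 ± 0.14, -0.06 ± 0.14 and 0.71 ± 0.27. Eef1akmt4 had 18 to 55 reads a library, was apart between genotypes and passed only without WT 1 (0.98). Eef1e1, which despite its name encodes a scaffold protein of the aminoacyl-tRNA synthetase complex, was at 0.03 ± 0.11.

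**Figure D4:**
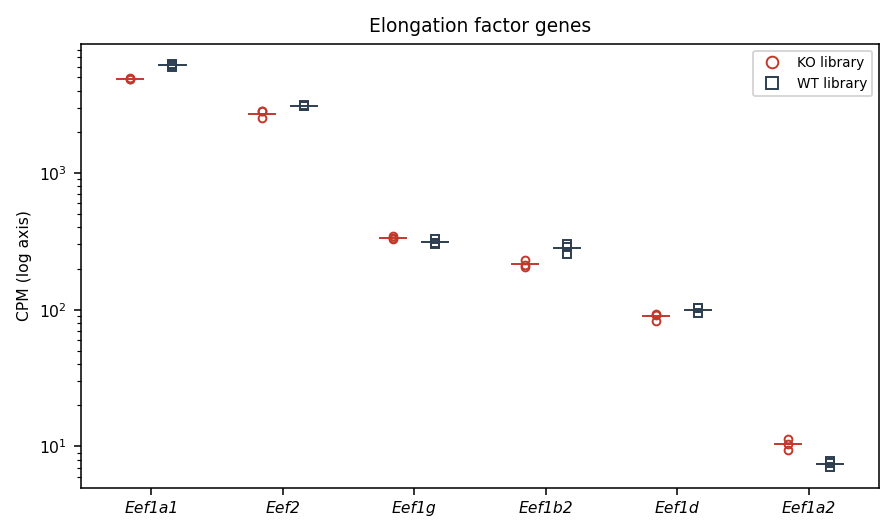
CPM of 6 elongation factor genes in each library (y axis, log scale), with KO libraries as red circles left of WT libraries as dark squares and short bars at the mean of 3 libraries. Eef1a1, Eef2 and Eef1b2 are lower and Eef1a2 is higher in every KO library; CPM is not divided by gene length here.

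Ratios between related genes within a library do not depend on scaling. In 7 of 13 paralog pairs the ratios of the genotypes did not overlap. Each of the 7 had p = 0.1 (exact permutation test, two-sided), the smallest that 3 against 3 allow. After Benjamini-Hochberg adjustment over the 13 it was 0.186. The share over other gene pairs was not computed, and 40.4% of single tested genes were apart. Each of the 7 pairs holds a called member, and several share Eif4e or Eif4a1 as denominator, so they are not independent. The log2 ratio of Eef1a2 to Eef1a1 was -9.03, -8.86 and -8.76 in KO 1, 2 and 3, against -9.69, -9.63 and -9.72 in WT 1, 2 and 3, a difference of 0.80. That of Eif4e3 to Eif4e was -2.20, -2.10 and -2.23 in KO 1, 2 and 3, against -2.04, -1.69 and -1.72 in WT 1, 2 and 3, and that of Eif4e2 to Eif4e was 0.54, 0.48 and 0.44 in KO 1, 2 and 3, against 0.75, 0.77 and 0.81 in WT 1, 2 and 3. Both ratios were lower in KO, with differences of -0.36 and -0.29. Of these cap-binding genes Eif4e alone was called. The log2 ratio of Eif4ebp2 to Eif4ebp1 was 0.63, 0.80 and 0.64 in KO 1, 2 and 3, against 0.21, 0.27 and 0.59 in WT 1, 2 and 3, a difference of 0.34. The ratio of Eif5a2 to Eif5a was -4.95, -5.32 and -5.24 in KO 1, 2 and 3, against -4.93, -4.75 and -4.86 in WT 1, 2 and 3, a difference of -0.32. KO 1 came close to WT in the last of these. The helicase ratios differed in opposite directions, by -0.18 for Eif4a2 to Eif4a1 and by 0.28 for Eif4a3 to Eif4a1.

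**Figure D5:**
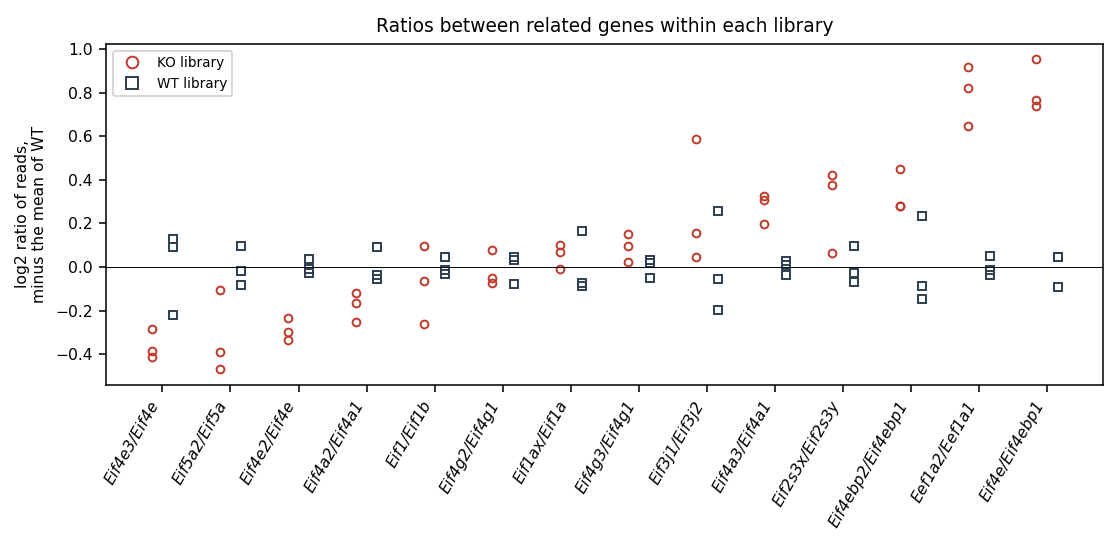
Log2 ratio of the reads of related genes within each library, minus the mean of WT (y axis), with KO libraries as red circles left of WT libraries as dark squares, for 13 paralog pairs and for Eif4e over Eif4ebp1. The genotypes are apart by 0.80 for Eef1a2 over Eef1a1 and by 0.82 for Eif4e over Eif4ebp1. The ratio of Eif4e to Eif4ebp1 is not among the 13 and was chosen after both genes had been called.

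Partner genes that act on these factors but lie outside the symbol rule were listed with earlier results known. Of 43 tested, 6 rose and 5 fell, or 25.6%, close to the 25.8% of all tested genes. Eif2ak2, for the RNA-activated eIF2 kinase PKR and known to be induced by interferon, had 51, 69.2 and 56.5 CPM in KO 1, 2 and 3, against 23.8, 18.3 and 21.3 CPM in WT 1, 2 and 3 (2.78-fold higher, edgeR adjusted p = 8.76e-07). The other eIF2 kinase genes Eif2ak1, Eif2ak3 and Eif2ak4 had log2 fold changes of 0.09, -0.03 and -0.22 and did not pass. Mtor, whose product phosphorylates the 4E-binding proteins, had 81.3, 97.2 and 92.6 CPM in KO 1, 2 and 3, against 60.4, 59.5 and 70.5 CPM in WT 1, 2 and 3, with KO higher throughout (log2 fold change 0.51 ± 0.08, edgeR adjusted p = 0.000425). Rptor, for its partner raptor, and Larp1, for a protein that binds messages with a 5′ pyrimidine tract such as those of elongation factors, were higher by 0.30 ± 0.06 and 0.41 ± 0.07 (edgeR adjusted p = 0.00249 and 0.00134). Paip2 and Paip2b, which encode inhibitors of the poly(A)-binding protein, changed by -0.49 and -0.44 on the log2 scale (edgeR adjusted p = 7.97e-05 and 0.00183). Gcn1l1 and Ppp1r15b also rose, and Pdcd4, Paip1 and Ddx3x also fell. The count that fell was 3 without KO 2, KO 3 or WT 3, 2 without WT 1, and 3 with scaling to library size only.

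The labelled cell type was checked with marker lists. All 14 dendritic cell markers had enough reads, and 7 rose and 3 fell in KO, beside 13.8% higher and 12% lower of all tested genes. Their summed level was 6921 to 7510 CPM in KO and 7390 to 7505 CPM in WT, with shifts in both directions inside it. Ccr7 averaged 2029 CPM in KO and 1383 CPM in WT, and Flt3, Zbtb46, Cd86, Itgae, Xcr1 and Irf8 also rose. H2-Ab1 averaged 1016 CPM in KO and 1428 CPM in WT, Cd74 2190 CPM in KO and 2697 CPM in WT, and Irf4 also fell. Of 11 macrophage and monocyte markers 7 were higher and 0 lower in KO (edgeR), beside 13.8% higher and 12% lower of all tested genes. They summed to 4377 to 4786 CPM in KO and 3850 to 4068 CPM in WT. Cd14 averaged 698 CPM in KO and 339 CPM in WT, and Fcgr1 averaged 164 CPM in KO and 21.1 CPM in WT. Adgre1, Csf1r, Mertk and Cd68 were not called, with log2 fold changes of 0.12, 0.04, -0.14 and -0.13. Mast cell and basophil markers rose in 3 of the 4 tested, beside 13.8% of all tested genes. Their sum was 80.4 to 86.7 CPM in KO and 49.3 to 56.1 CPM in WT. Most of it was Kit, which averaged 73.9 CPM in KO and 48.8 CPM in WT. Gata2 averaged 6.70 CPM in KO and 3.61 CPM in WT, and Mcpt8 1.15 CPM in KO and 0.273 CPM in WT. Cpa3 was not called, at 0.901 CPM in KO and 0.333 CPM in WT, and Fcer1a and Ms4a2 had too few reads to test. Neutrophil markers summed to 35.1 to 49.3 CPM in KO and 29.3 to 40.5 CPM in WT, with 2 of 4 tested higher. Markers of B cells, of T and NK cells and of erythroid cells stayed at or under 1.53 CPM in KO and 1.49 CPM in WT. Of 8 proliferation genes 6 rose and Pcna fell, and their sum was 396 to 438 CPM in KO and 459.9 to 500.4 CPM in WT. Pcna alone averaged 309 CPM in KO and 408 CPM in WT, and the other 7 summed to 103 to 114 CPM in KO and 73.9 to 75.6 CPM in WT. The part of these shifts in the values of the translation factors was not tested.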

How the data were processed

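The 64 members follow from the symbol rule, which uses no values. That rule and the partner and marker lists were set with earlier results of these data known. RNA-seq counts per gene for 6 libraries were deposited by the authors as raw read counts, with no normalization. The submitters' processing notes name mm10, HISAT2, TopHat2, SAMtools, HTSeq and DESeq2, without versions or roles, and strand-specific counting is not given in the sources used here. Counts were fitted over the whole table with edgeR 4.0.16 (R 4.3.3; TMM scaling, filterByExpr with a minimum count of 10, which left out 17338 rows, glmQLFit and glmQLFTest, no covariates) and adjusted by Benjamini-Hochberg. The common biological coefficient of variation was 8.48%. No pair of libraries of a genotype agreed within sampling noise. By a chi-square per degree of freedom over the tested genes, the disagreement was uneven. It was 17.8 for WT 1 with WT 2, 19.1 for WT 2 with WT 3 and 4.99 for WT 1 with WT 3. In KO it was 13.2 for KO 1 with KO 2, 7.26 for KO 1 with KO 3 and 4.10 for KO 2 with KO 3. CPM were divided by exon length (GENCODE M21) only where levels of genes are compared. Genes given in full are the called members at either end of the fold changes (8 each), the member with most reads in each group, and the 5 paralog pairs whose ratio differed most; others are named for their role. Related genes and pseudogenes can share reads. Exons of the called genes Eef1a1, Eif4g2 and Eif4e overlap Gm26377, Gm23262 and Mir1956 by 108, 150 and 61 bases on the same strand. Alternatives used DESeq2 1.42.0, limma 3.58.1, other filters and scaling, offsets, a replicate block and omitted libraries. The addition of pseudogene rows was chosen after seeing the data. The fit was tested on simulated data.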

Additional observations from a re-analysis of the deposited data

How the results depend on the processing

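No called member changed sign in the 15 alternatives, and 12 of the 21 were called in all of them. Of the 40 tested members that were not called, 9 were called in at least 1 alternative. The members that rose numbered 9, against 14 with scaling to library size only, 6 with the replicate block and 3 to 10 with 1 library left out. The members that fell numbered 12, or 10 to 13 with 1 library left out. Of all genes, 1826 rose and 1586 fell, or 1182 to 1992 and 945 to 1622 with 1 library left out. Partner genes that fell numbered 5, against 3 with scaling to library size only and 2 to 4 with 1 library left out.

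Members near 0 that were not called turned sign with scaling to library size only Eef1akmt1 (0.0298), Eif2b1 (0.0273), Eif2b5 (0.0268), Eif2s1 (0.0139), Eif3a (0.018), Eif3l (0.0078); with no count filter Eef1akmt1 (0.0081), Eif2b1 (0.0061), Eif2b5 (0.0059); with limma-voom Eef1akmt1 (0.019); with the replicate block Eef1akmt1 (0.0131); with WT 2 and KO 1 both left out Eef1akmt1 (0.19), Eif1ax (0.0089), Eif2b1 (0.0011), Eif2b5 (0.061), Eif2s1 (0.0177), Eif4e2 (-0.0028), Eif4e3 (0.0401); with GC and length offsets Eef1akmt1 (0.10), Eef1akmt2 (0.0283), Eif2b1 (0.009), Eif2s1 (0.0055), Eif4e2 (-0.039). With 1 library left out the log2 fold changes spanned 0 for Eef1akmt1 (-0.15 to 0.19), Eef1akmt2 (-0.11 to 0.0291), Eef1e1 (-0.0562 to 0.12), Eif1ax (-0.11 to 0.0496), Eif2b1 (-0.0587 to 0.0616), Eif2b3 (-0.0698 to 0.28), Eif2b5 (-0.0741 to 0.0636), Eif2s1 (-0.0483 to 0.0106), Eif3a (-0.0529 to 0.0275), Eif3l (-0.06 to 0.0034), Eif4e2 (-0.0154 to 0.0437). The cause was not tested. Same-numbered libraries did not vary together (correlations of 0.01, -0.11 and 0.08), so the block stands for no known pairing.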
